A study of Mus musculus with 5 samples.

Results

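Genes that set how much active thyroid hormone a retinal cell sees, and genes of its receptors, were examined in mouse retinas after form deprivation. They are the deiodinase genes Dio2 and Dio3, the hormone transporter gene Slco1c1, the receptor genes Thra and Thrb, their dimer partner Rxrg, and Crym, whose product binds the hormone in the cytosol. These 7 genes were taken by symbol from the 33635 genes of the count table, each symbol had 1 row, and all 7 passed the count filter. Wild-type male C57BL/6J mice, a common inbred laboratory strain, wore a translucent goggle over the right eye for 2 weeks from postnatal day 28 (P28), which blurs the image on the retina and drives the eye towards myopia. The left eye stayed uncovered and served as the control, and whole retinas were collected at P42, in the light phase. RNA of 2 form-deprived (FDM) eyes and 3 control eyes was sequenced, 1 library per eye. FDM 1 and Control 1 were the eyes of one mouse and FDM 3 and Control 3 those of another by the study's numbers, while Control 2 had no partner here. The labels number the library called FDM 3 here as the second of its group, so the pair of mouse 3 is less sure than that of mouse 1. Because the controls are the fellow eyes of goggled animals, every eye came from an animal that had worn a goggle, and no eye of an untreated mouse was included. The refractive error at P42 in the sample labels was 0.976 and 0.2745 dioptres in the FDM eyes and 2.4455, 3.1505 and 2.465 dioptres in the control eyes.

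Thyroid hormone reaches the eye mostly as thyroxine, a prohormone. The type 2 deiodinase encoded by Dio2 turns it into triiodothyronine, the active form, and the type 3 deiodinase encoded by Dio3 inactivates both. Triiodothyronine binds the nuclear receptors encoded by Thra and Thrb, which sit on DNA together with a retinoid X receptor and change the transcription of nearby genes. In the mouse retina this pathway is best known from cones, where a Thrb isoform and Rxrg pattern the medium- and short-wavelength opsins.

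Both deiodinases are selenoproteins. Their messages read a TGA codon, normally a stop, as selenocysteine, the residue at the catalytic centre, and the coding bases around that codon show how closely the activating and the inactivating enzyme resemble each other there. The following stretches are from the GENCODE M21 transcripts of GRCm38, written along the message, with the selenocysteine codon in capitals. The Dio2 stretch spans chr12:90729811-90729837 on the minus strand and holds codon 130 of 266. The Dio3 stretch spans chr12:110279727-110279753 on the plus strand and holds codon 170 of 304. The last stretch, chr12:90729415-90729438 on the minus strand, holds a second such codon of Dio2, codon 263.
Dio2, codon 130: ggttcagccaccTGAccacctttcact
Dio3, codon 170: ggcagctgtaccTGAccaccgttcatg
Dio2, codon 263: ttcagcaagagaTGAattctagat
Of the 27 bases aligned on the first Dio2 codon and the Dio3 codon, 17 were identical (63%).

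The promoter of Dio2, the member that changed most, is shown for the sites it carries. The 250 bases before its start in RefSeq (GRCm38.p6) lie at chr12:90739039-90739288 and are written along the minus strand of the chromosome, which is the gene's own. That RefSeq start lies upstream of the GENCODE M21 bounds of Dio2 given with its values.
Dio2 promoter: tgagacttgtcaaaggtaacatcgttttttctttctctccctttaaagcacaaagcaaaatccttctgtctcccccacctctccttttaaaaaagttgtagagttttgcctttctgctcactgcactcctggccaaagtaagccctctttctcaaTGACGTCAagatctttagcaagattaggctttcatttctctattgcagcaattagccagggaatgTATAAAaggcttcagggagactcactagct
Capitals mark a cAMP response element (TGACGTCA), which begins 95 bases before the start, and a TATA box (TATAAA), which begins 30 bases before it. A search of both strands in windows of the same 250 bases found the first in 1.55% and the second in 12.4% of 32851 promoters. Neither a thyroid hormone half-site (AGGTCA, in 14% of promoters) nor an E-box (CACGTG, in 6.02%) was present in the Dio2 window. In the window of Dio3 a TATA box began 31 bases before the RefSeq start, here with its flanks at chr12:110279187-110279216 on the plus strand.
Dio3, TATA box: tcaagctttgacTATAAAttgagctcccag
The first of the Thrb windows and the second of the Rxrg windows each held a single half-site, 184 and 88 bases before the start, and the direct repeat of that site with 4 bases between the copies, present in 0.0152% of promoters, was in none of the 7 windows found for 5 of the members. The windows of Thra and Crym were not analysed here. These matches describe letters and not binding.

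The libraries were read as retina. Sag, which encodes the arrestin of rods, stood between 4254 and 5065 CPM (counts scaled to a common library total with TMM factors), and 0 of the 12 neural retina markers passed the unadjusted threshold in edgeR. Totals ran from 40599047 to 56534931 estimated counts per library, and the detection floor of 3 counts was worth 0.0526 to 0.0751 CPM, counting error alone considered. Libraries stood apart in marker genes of neighbouring tissues, and the source of this RNA was not tested. The study lists several crystallin genes among its most upregulated transcripts. Lens genes summed to 1971 CPM in FDM 3 against 2.88 to 18.7 CPM in the other 4 libraries, and skeletal muscle genes to 71.1 CPM in Control 3 against 12.1 to 13.5 CPM. Genes of the retinal pigment epithelium (RPE), the pigmented layer behind the photoreceptors that is peeled off at dissection, were high in Control 2 and Control 3, as given beside the deiodinases.

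Levels between genes were compared per kilobase of exon, averaged over the 5 libraries. Thra led with 64.2 CPM per kilobase, followed by Crym at 14.2, Thrb at 8.29, Dio2 at 7.33, Rxrg at 4.17, Slco1c1 at 2.72 and Dio3 at 0.542 CPM per kilobase. Thra, Crym and Thrb did not overlap, with ranges over the libraries of 58.3 to 67.6, 12.0 to 15.7 and 6.98 to 10.2 CPM per kilobase. Rxrg, at 3.57 to 4.46, lay above Slco1c1, at 2.38 to 3.003 CPM per kilobase. Dio2 could not be placed in this order, because it ran from 1.99 to 16.3 CPM per kilobase and so crossed Crym, Thrb, Rxrg and Slco1c1. Dio3 was the lowest of the 7 in every library, at 0.136 to 1.19 CPM per kilobase.

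**Figure D1:**
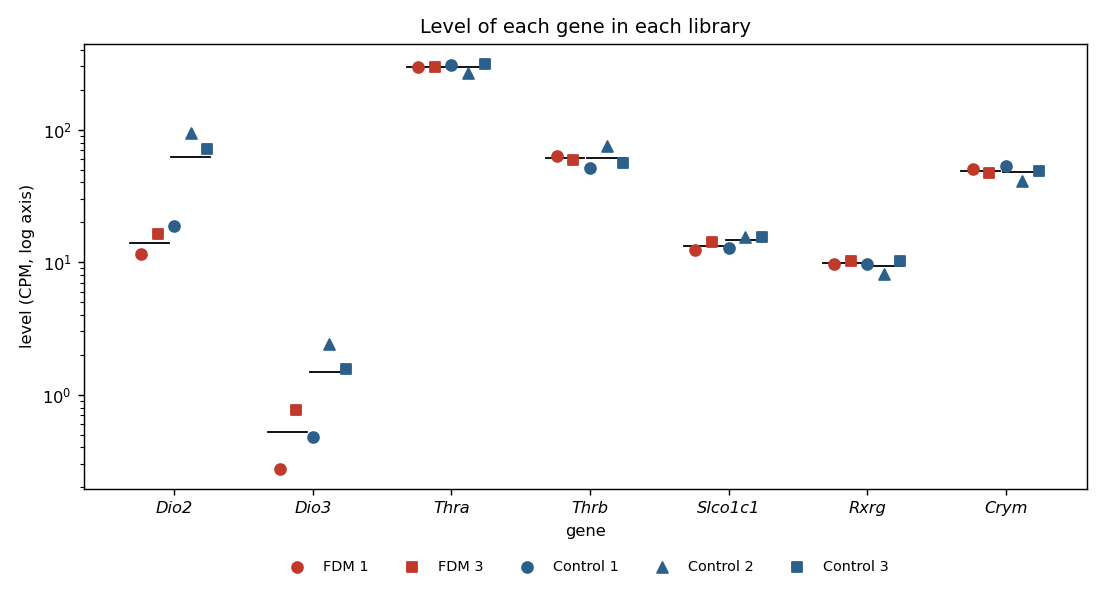
Level of each gene in each library in CPM on a log axis, with FDM libraries in red, control libraries in blue, the mouse number as the marker shape and the group mean as a bar. Dio2 and Dio3 spread about 5-fold among the 3 controls, from Control 1 beside the FDM eyes up to Control 2, while the other 5 genes stay within 1.46-fold.

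The comparison of FDM with control eyes asks which of these genes respond to 2 weeks of blurred vision. Of the 7 members, 1 was lower in FDM eyes at the study's threshold and 0 were higher. That threshold is an unadjusted p under 0.05, applied here to edgeR's quasi-likelihood test and by the study to DESeq2. Among all 17432 genes tested, 1.61% passed it in edgeR, 1.16% with lower and 0.453% with higher levels in FDM eyes. After Benjamini-Hochberg adjustment over all genes tested, 0% of the genes and 0 of the members passed, and the adjusted p of each member was 0.99999 in edgeR. Testing the same genes with DESeq2 gave 172 unadjusted calls, among them 2 members, Dio2 and Dio3, both lower. It gave 3 adjusted calls, none of them a member. The member that passed in edgeR was Dio2. Dio2 and Dio3 were already in the study's own list of thyroid hormone signaling genes from these libraries, so their direction here is not independent of that choice.

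Dio2, on chromosome 12 of GRCm38 from 90724552 to 90738438, was counted 501 and 788 times in the FDM eyes and 755, 5412 and 3385 times in Control 1, 2 and 3. In CPM these were 11.6 and 16.4 in the FDM eyes and 18.9, 94.9 and 71.3 in the control eyes. Both FDM eyes lay below all controls, an order that 6.67% of all genes tested showed (3.98% had the opposite order, as 0 members did), but Control 1 lay much nearer to the FDM eyes than to the other controls. The group levels were 13.97 ± 3.41 CPM for FDM (SD, n = 2) and 61.7 ± 38.9 CPM for the controls (SD, n = 3). Dio2 was 4.42-fold lower in FDM, a log2 fold change of -2.14 (unadjusted p = 0.00910 from edgeR, standard error 0.61) with a 95% interval from -3.57 to -0.72 on the log2 scale. It ranked 27th from the lowest fold change of the 17432 genes. Blocked by mouse it was -1.49 (standard error 0.25, unadjusted p = 2.10e-04 in edgeR, adjusted p = 0.0629). That standard error draws on variation shared across genes. It does not measure the spread of the 2 mice, whose eye differences were -0.71 and -2.12 on the log2 scale. With any 1 of the 5 libraries left out, the log2 fold change of Dio2 ran from -2.57 to -1.69. Leaving out any 1 of the 3 controls kept Dio2 past the unadjusted threshold. Without Control 1, the control nearest the FDM eyes, Dio2 passed adjustment over all genes (adjusted p = 0.0184 from edgeR). In that fit 12 of 17353 genes passed adjustment, among them 6 of the 16 RPE markers described below. In these bulk retinas, fewer cells that hold Dio2 and less Dio2 RNA per cell cannot be told apart.

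Dio3, also on chromosome 12, from 110279068 to 110281097, was the scarcest member. It was counted 12 and 37 times in FDM 1 and FDM 3 and 19, 138 and 74 times in Control 1, 2 and 3. Exact 95% Poisson intervals, which cover counting error only, ran from 6.2 to 21 counts for FDM 1 and from 11.4 to 29.7 counts for Control 1. In CPM the FDM eyes stood at 0.277 and 0.769 and the controls at 0.476, 2.42 and 1.56. The groups overlapped, with Control 1 between the FDM eyes. The group levels were 0.523 ± 0.348 CPM for FDM (SD, n = 2) and 1.48 ± 0.974 CPM for the controls (SD, n = 3), and the log2 fold change of -1.51 missed the threshold (standard error 0.68, unadjusted p = 0.0609 from edgeR). Its 95% interval ran from -3.11 to 0.09. With the mouse as a block the log2 fold change was -0.94 and the unadjusted p fell to 0.00734 (adjusted p = 0.513 from edgeR). The unadjusted p from edgeR was 0.00353 without Control 1, 0.186 without Control 2 and 0.126 without Control 3. The log2 fold change of Dio3 was -2.44 without FDM 3 and -0.97 without FDM 1. With every library kept and DESeq2, the study's tool, in place of edgeR, Dio3 was at -1.50 and passed the threshold (unadjusted p = 0.02355 from DESeq2).

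The activating and the inactivating enzyme gene had their highest value in the same library, Control 2, and their lowest in FDM 1. Of all genes tested, 31.4% peaked in Control 2, as did 4 of the 7 members, Thrb and Slco1c1 being the others. The highest control exceeded the lowest 5.02-fold for Dio2 and 5.09-fold for Dio3, and 6.28% of all genes tested differed at least 2-fold between controls in this way. The ratio of Dio2 to Dio3, each per kilobase, was 14.6 in FDM 1, 13.9 in Control 1, 13.7 in Control 2, 16.0 in Control 3 and 7.43 in FDM 3. FDM 3 was the exception among the 5 libraries, holding more Dio3 for its Dio2 than any other. The third deiodinase gene, Dio1, was at 0 to 5 counts in every library and was not tested.

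Of the receptor genes 0 passed the threshold. Thra encodes the receptor that most tissues express and lies on chromosome 11 from 98740638 to 98769006. It had 297 and 297 CPM in FDM 1 and FDM 3 and 305, 269 and 312 in Control 1 to 3. Its groups overlapped, and its log2 fold change was 0.01 (standard error 0.09, 95% interval -0.21 to 0.23, unadjusted p = 0.938 from edgeR), with a sign that turned under some alternatives. The 3' exons of Thra share 263 bases with those of Nr1d1, a clock repressor gene on the opposite strand, and the library kit used does not keep the strand, so that reads from the shared bases cannot be told apart. Nr1d1 ran from 217 to 330 CPM and its log2 fold change was 0.13 (unadjusted p = 0.453 from edgeR).

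Thrb, on chromosome 14 from 17660261 to 18038090, encodes the receptor whose isoform acts in cones. The estimated counts are per gene, so the isoforms were not told apart. It had 63.8 and 59.5 CPM in FDM 1 and FDM 3 and 51.7, 75.6 and 56.4 in Control 1 to 3, so that both FDM eyes lay inside the range of the controls. The log2 fold change was 0.01 (standard error 0.16, 95% interval -0.37 to 0.39, unadjusted p = 0.955 from edgeR). Within each mouse the FDM eye was the higher one, by 0.30 in mouse 1 and by 0.08 in mouse 3 on the log2 scale. Blocked by mouse, Thrb was higher by 0.19 on that scale (standard error 0.07; unadjusted p = 0.0306 in edgeR, adjusted p = 0.654). Leaving out Control 2 gave a log2 fold change of 0.20 (unadjusted p = 0.0333 from edgeR), while leaving out Control 1 gave -0.10 (unadjusted p = 0.514 from edgeR), so that the sign rests on which control is kept.

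Rxrg, on chromosome 1 from 167598384 to 167639623, encodes the retinoid X receptor of cones. It had 9.69 and 10.2 CPM in FDM 1 and FDM 3 and 9.62, 8.19 and 10.3 CPM in Control 1, 2 and 3, and its groups overlapped. The log2 fold change was 0.09 (standard error 0.13, 95% interval -0.21 to 0.39, unadjusted p = 0.508 from edgeR). Its eyes differed least of the 7 genes within the mice, by 0.01 in mouse 1 and -0.01 in mouse 3 on the log2 scale.

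Slco1c1, on chromosome 6 from 141524368 to 141570177, encodes an organic anion transporter that carries thyroxine across the capillary wall of the brain. It had 12.4 and 14.2 CPM in FDM 1 and FDM 3 and 12.9, 15.6 and 15.5 in Control 1 to 3. FDM 1 and Control 1, the eyes of one mouse, were the lowest pair, and the groups overlapped. The log2 fold change was -0.15 (standard error 0.13, 95% interval -0.44 to 0.15, unadjusted p = 0.285 from edgeR).

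Crym, on chromosome 7 from 120186380 to 120202111, encodes mu-crystallin, a binding protein for triiodothyronine rather than a structural protein of the mouse lens. It had 50.8 and 47.0 CPM in FDM 1 and FDM 3 and 53.2, 40.9 and 48.9 CPM in Control 1, 2 and 3. Its groups overlapped, FDM 3 was not its highest library as it was for the lens genes, and the log2 fold change was 0.04 (standard error 0.12, 95% interval -0.25 to 0.32, unadjusted p = 0.762 from edgeR), with a sign that turned under some alternatives.

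**Figure D2:**
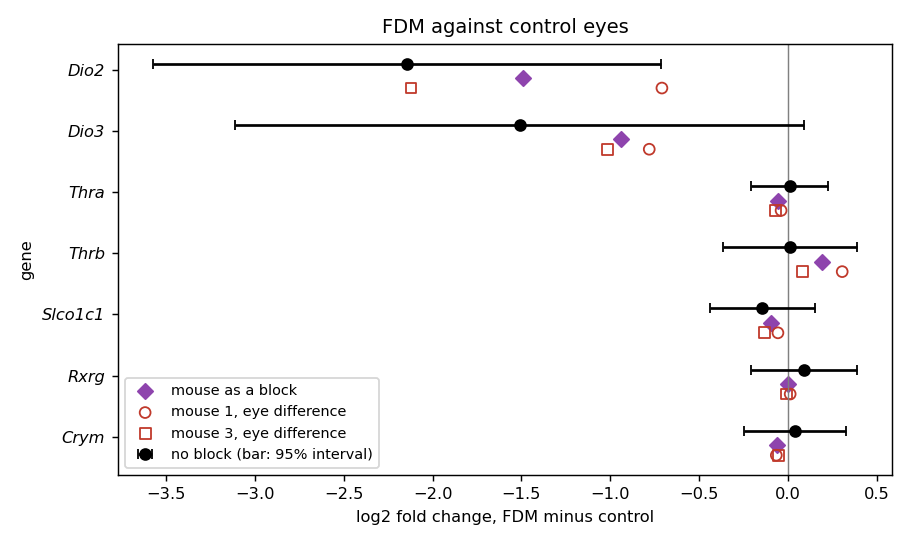
Log2 fold change of FDM minus control for each gene without a block (black, with its 95% interval) and with the mouse as a block (purple), and the difference between the eyes of mouse 1 and mouse 3 (open red symbols). The interval of Dio2 lies below 0, that of Dio3 reaches 0.09, and without a block the other 5 genes sit within 0.15 of 0.

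Between the eyes of one mouse, 5 of the 7 members were lower in the FDM eye in both pairs, namely Dio2, Dio3, Thra, Slco1c1 and Crym, and 1, Thrb, was higher in both. Of all genes tested, 30.3% were lower and 24.7% higher in both pairs. The size separated the deiodinases from the rest. Dio2 was 1.64-fold lower in the FDM eye of mouse 1 and 4.35-fold lower in that of mouse 3, and Dio3 1.72-fold and 2.03-fold lower. Thra, Slco1c1 and Crym differed between the eyes by at most 1.096-fold. Thrb differed most among the rest, by 0.30 on the log2 scale in mouse 1. The only test of these differences is the fit blocked by mouse, which leaves 1 residual degree of freedom. Its p-values draw on variation shared across genes and do not measure the spread between the mice.

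The rest of the pathway was read from lists of 40 tested genes outside the 7 members, not counting the study's own list of thyroid hormone signaling genes, of which 1 passed the unadjusted threshold in edgeR, Ttr, the same RPE gene described with the deiodinases. The lists were written with earlier results of these data known. The other 39 had log2 fold changes between -0.16 and 0.15, and the median over the 40 was -0.0044 against -0.0133 over all genes tested. In the fit blocked by mouse, 6 of the 40 passed the unadjusted threshold, where 7.23% of all genes did, and 0 of the 40 passed adjustment, where 0.31% of all genes did. With that block 3 of the 7 members, Dio2, Dio3 and Thrb, passed the unadjusted threshold and 0 passed adjustment. Paired by the labels' numbers in its place, Dio2 and Dio3 passed adjustment (adjusted p = 7.11e-14 and 0.0118 from edgeR), again with 1 residual degree of freedom. In that fit 128 of the 17432 genes tested passed adjustment, among them 8 of the 16 RPE markers and 1 of the 40 other pathway genes. Under that pairing Dio2 differed between the eyes by -0.71 and -2.53 on the log2 scale, a spread that its p-value does not measure.

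Of the other 6 transporter genes 0 passed the threshold. Slc3a2, the shared heavy chain of amino acid transporters that also carry thyroid hormone, had a log2 fold change of -0.05, and its partner gene Slc7a8 one of -0.04.

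The partner receptor Rxra had a log2 fold change of 0.02. The 12 corepressor and coactivator genes, which silence or activate transcription at the bound receptor, gave 0 calls and a median log2 fold change of 0.0019. Ncor1, the corepressor of the unoccupied receptor, was at -0.01 and the coactivator gene Ncoa1 at 0.00. Among the 9 tested genes that thyroid hormone raises or lowers in brain, liver or retina, which include Dio3 itself, 0 passed. Hr, a corepressor gene that the hormone induces strongly in brain, stood between 116 and 133 CPM with a log2 fold change of 0.00, and Klf9, another induced transcription factor gene, at -0.13. Pcp2 and Me1, the most abundant of this list, were at 0.05 and -0.04.

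The type 2 deiodinase protein is short-lived and is marked for destruction by ubiquitin. The genes of that step gave 0 calls among 5, with Usp33, a deubiquitinase, at 0.00 and Marchf6, a ubiquitin ligase, at -0.11 on the log2 scale. The 6 genes that insert selenocysteine gave 0 calls, with Secisbp2 at 0.08 and Sephs2 at -0.01. Of the 13 cone genes, Thrb and Rxrg included, 0 passed. The medium-wavelength opsin gene Opn1mw, which the hormone raises, had a log2 fold change of 0.11, and the short-wavelength opsin gene Opn1sw, which it holds down, one of -0.15 (unadjusted p = 0.331 from edgeR). Gnb3, a transducin subunit of cones, was at 0.11.

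**Figure D3:**
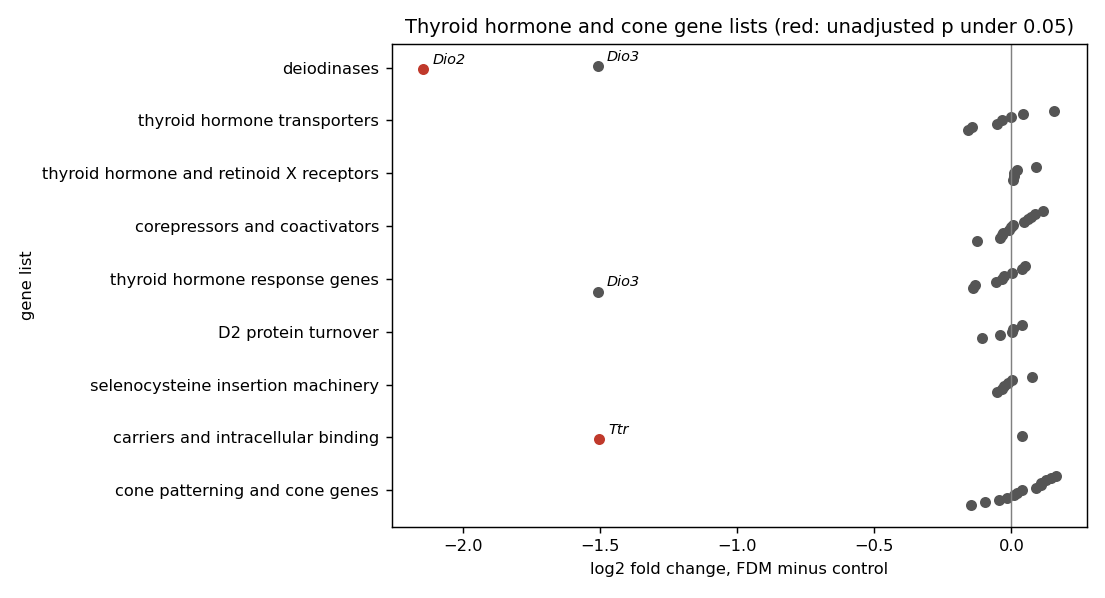
Log2 fold change of FDM minus control for every tested gene of 8 thyroid hormone pathway lists and of the cone list, without the list named by the study, with genes of unadjusted p under 0.05 in red. Dio2, Dio3 (in 2 lists) and Ttr lie between -2.14 and -1.50, and all other genes plotted lie between -0.16 and 0.16.

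Many RPE markers were high in Control 2 and Control 3, as the deiodinases were. Between the eyes of mouse 1 the markers as a list did not move with the deiodinases, as given below. Of the 16 on the list, 9 were lower in FDM eyes at the unadjusted threshold in edgeR and 0 higher, namely Rpe65, Rgr, Lrat, Ttr, Kcnj13, Slc16a8, Rdh5, Ermn and Slc6a20a, and the median log2 fold change of the list was -1.30. The count was 3 without FDM 3 and 4 without Control 3. Rpe65, the isomerase of the visual cycle, had 5.49 and 4.51 CPM in FDM 1 and FDM 3 and 5.36, 27.9 and 23.6 CPM in Control 1, 2 and 3. Ttr, which encodes transthyretin, a carrier of thyroxine and retinol, had 32.0 and 25.2 CPM in the FDM eyes and 33.8, 116 and 92.6 CPM in the controls, with a log2 fold change of -1.50 (unadjusted p = 0.0134 from edgeR). The whole list summed to 308 and 320 CPM in the FDM eyes and to 302 to 589 CPM in the controls. Trpm1, a gene that ON bipolar cells also express, made up most of that sum in 3 libraries. The other 15 summed to 106 and 94.7 CPM in FDM 1 and FDM 3 and 108, 332 and 374 in Control 1 to 3, and none of them was at 0 in any library. Of these, 4 (Pmel, Tyr, Tyrp1 and Dct) also mark melanocytes. Control 2 and Control 3 were thus high for the RPE markers, Dio2 and Dio3 alike. What part these markers have in the Dio2 result was not tested.

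Within the mice, the summed RPE markers were far apart between the eyes of mouse 3 and close between those of mouse 1. In mouse 1 the 15 markers summed to 1.03-fold more in the control than in the FDM eye, 5 of the 15 were lower in the FDM eye, and Dio2 was 1.64-fold lower. Every fibroblast marker but Pdgfra and every ciliary body and iris marker was also lower in the FDM eye of mouse 1. Examples, picked after their values were seen, were Dcn (4.03-fold, 7 against 26 counts) and Ogn (2.1-fold, 15 against 29 counts) of the fibroblast list. Otx1 of the ciliary body list was another (1.57-fold, 9 against 13 counts). Kcnj13 was picked in the same way (1.92-fold, 26 against 46 counts), from the RPE list, most of whose markers were not lower there. In mouse 3 the RPE markers summed to 3.94-fold more in the control eye, 15 of the 15 were lower in the FDM eye, and Dio2 was 4.35-fold lower. Per 100 CPM of these markers, Dio2 stood at 10.9 and 17.3 CPM in FDM 1 and FDM 3 and 17.5, 28.6 and 19.1 in Control 1 to 3. On that scale FDM 1 was the lowest, and FDM 3 and Control 1 were nearly equal. The sum includes the genes that also mark melanocytes, and the order of FDM 3 and Control 1 rests on which markers are summed. Dio3 on the same scale was 0.262 and 0.812 CPM in FDM 1 and FDM 3 and 0.439, 0.73 and 0.417 in Control 1 to 3, so that FDM 3 was its highest library and FDM 1 its lowest.

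**Figure D4:**
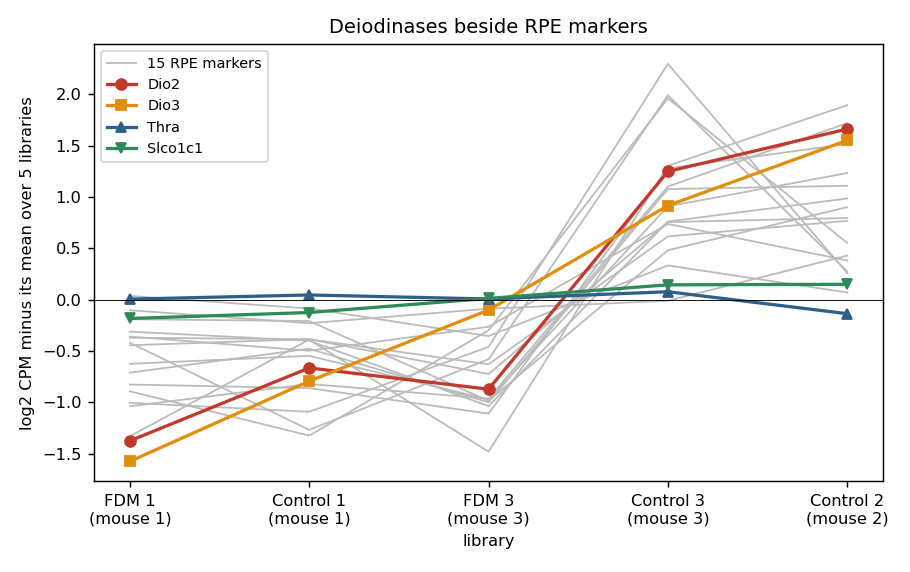
Log2 CPM minus its mean over the 5 libraries for Dio2, Dio3, Thra and Slco1c1 (coloured) and for 15 RPE markers (grey), with the libraries ordered by mouse on the x axis. Dio2 and Dio3 rise with the markers in Control 3 and Control 2, both are lower in FDM 1 than in Control 1, and Thra and Slco1c1 stay near 0.

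By the root mean square difference of centred log2 CPM over the 5 libraries, the 10 tested genes most like Dio2 were Lrat, Slc6a13, Cldn1, Rpe65, Kcnj13, Ptgds, Tbx22, Penk, Gm13690 and Slc16a12, at 0.187 to 0.385. Lrat, Rpe65 and Kcnj13, 3 of these 10, are on the RPE list. The most abundant of them, Ptgds, a prostaglandin synthase gene, had 49.0 and 51.1 CPM in FDM 1 and FDM 3 and 55.8, 209 and 193 CPM in Control 1, 2 and 3. The 5 most like Dio3 were Zic4, Penk, Slc16a12, Slc13a4 and Vcan, at 0.204 to 0.252, and 0 of them is on that list. Penk and Slc16a12 were in both sets, and Dio3 itself was the 12th nearest gene to Dio2, at 0.391. Tbx22 and Gm13690 had 3 counts or fewer in FDM 1, FDM 3 and Control 1. Each distance is over the same 5 libraries and is a description without a test.

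Markers of other tissues were set beside these values. Of the 7 tested choroid and scleral fibroblast markers 0 passed the threshold, with a median log2 fold change of -0.46 and sums of 21.1 to 29.8 CPM in FDM and 23.6 to 47.2 CPM in control eyes. Melanocyte markers gave 0 calls among 7 and summed to 20.2 and 25.8 CPM in FDM and 17.2, 42.9 and 133 CPM in Control 1, 2 and 3. Endothelial and pericyte markers, from the vessels where Slco1c1 is known to be active, gave 0 calls among 9 and a median of 0.05, with sums of 601 to 640 CPM in FDM and 605 to 647 CPM in control eyes. Müller glia and astrocyte markers gave 0 calls among 10 and a median of 0.01, with sums of 3698 and 3873 CPM in FDM and 3711 to 4046 CPM in control eyes. Ciliary body and iris markers gave 0 calls among 5. All 8 tested lens markers passed as higher in FDM eyes, a call that rests on FDM 3, and the muscle markers gave 0 calls among 5. In the fit blocked by mouse, 7.23% of all genes tested passed the unadjusted threshold. The calls were 4 of 7 for the fibroblast, 3 of 7 for the melanocyte, 2 of 5 for the ciliary body and iris and 5 of 5 for the muscle markers. They were 11 of 16 for the RPE, 8 of 8 for the lens, 2 of 10 for the Müller glia and astrocyte, 1 of 12 for the neural retina and 0 of 9 for the endothelial and pericyte markers. The fibroblast gene Dcn passed adjustment (log2 fold change -2.24, adjusted p = 0.00582 from edgeR). The part of these tissues in the deiodinase levels was not tested. Of the 5 thyroid hormone signaling genes that the study lists, Bmp4, a growth factor gene, was lower beside Dio2, with a log2 fold change of -1.0996 (unadjusted p = 0.0272 from edgeR) and with Control 1 between the FDM eyes. Notch1, at 0.24, and Itgav, at -0.28, did not pass in edgeR, while the study's list came from DESeq2.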

How the data were processed

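Retinal RNA was sequenced by the authors from poly-A libraries. They trimmed reads with Trimmomatic 0.39, estimated transcript abundance with Salmon 1.10.1 and deposited estimated counts per gene as whole numbers, together with a signal of DESeq2-normalized counts (each count divided by a factor per gene and library). The second FDM column is numbered 3 in the table and 2 in the labels, and the study's number 3 was used for the pairing. One FDM library was removed by the authors for read duplication.

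A gene was kept when 2 or more libraries held over 10 counts of it (17432 of 33635), and the groups were compared in edgeR 4.0.16 (R 4.3.3, TMM factors, quasi-likelihood test, no covariate) at the study's unadjusted p of 0.05. DESeq2 1.42.0, limma 3.58.1, other factors and filters, the mouse as a block and leaving out each library were the alternatives. The scripts were tested on simulated counts. The pairing comes from the study's mouse numbers. Deviations from the group means correlated across genes at 0.247 for the pair of mouse 1 and 0.0998 for that of mouse 3, while FDM 3 correlated more with Control 2 (0.163), its partner by the labels' numbers, so these values do not settle the pairing. With 2 FDM libraries, the deviations of FDM 3 are those of FDM 1 with the sign turned. The values for the 2 FDM eyes are therefore not separate checks. No libraries were duplicates. Levels per kilobase use GENCODE M21 exons on GRCm38, not Salmon's effective lengths.

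The 7 members and all lists were chosen with earlier results of these data known. Named were the members, the genes of each pathway list that passed the threshold or were its most abundant pair, and the 10 and 5 genes most like Dio2 and Dio3. Hr, Klf9, Dio1, Opn1mw and Trpm1 were named after their values were seen. Marker lists of other tissues are given as sums and counts, and the RPE sum without Trpm1 was chosen after seeing the data. March6 is listed as Marchf6. Dio3os and Lim2 were not analysed here, and some listed genes are not reported here.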

Additional observations from a re-analysis of the deposited data

How the results depend on the processing

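Dio2 kept its direction and its side of the threshold under all 14 alternatives, with log2 fold changes from -2.57 to -1.49 and unadjusted p up to 0.0371, and Slco1c1 and Rxrg stayed on theirs. With each library left out in turn, genes called ran from 146 to 946 against 281, the lowest without Control 3 and the highest without Control 1. Other counts were 170 without FDM 1, 535 without Control 2, 172 with DESeq2, 498 with no filter, 1261 (622 higher, 639 lower) with the replicate block by mouse and 439 with the replicate block by label numbers. After adjustment the mouse block called 54 genes and 0 members, and the label block 128 genes and 2 members, Dio2 (adjusted p = 7.11e-14 from edgeR) and Dio3 (adjusted p = 0.0118 from edgeR). Members called rose from 1 to 2 with DESeq2, the authors' factors, no filter or the label block, and to 3 with the mouse block, and ran from 1 to 2 with a library left out. Dio3 passed the threshold with DESeq2 (-1.50), the authors' factors (-1.65), no filter (-1.51), the mouse block (-0.94) and the label block (-1.36), and ran from -2.44 to -0.95 with a library left out. Thrb was at 0.19 with the mouse block and -0.022 with the label block, and ran from -0.10 to 0.20 with a library left out. Thra turned to -0.00081 with the authors' factors and -0.056 with the mouse block, and ran from -0.045 to 0.055. Crym turned to -0.061 with the mouse block and ran from -0.051 to 0.13. Under the label numbers 3 rather than 5 members were lower in both pairs. RPE markers called fell from 9 to 4 without Control 3 and rose to 13 without Control 1 (added after seeing the data). They were 11 with the mouse block, 11 with no filter and 10 with the label block. After adjustment 0 of the 16 passed with the mouse block, 8 with the label block and 6 without Control 1. Where 1 FDM library remained, it was assumed to vary like the controls, and either block leaves 1 residual degree of freedom. The cause of these shifts was not tested. At its counts Dio3 is the member limited most by depth.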
